A study of Mus musculus with 6 samples.

Results

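Dapk1 and Gas1 lie close together in a stretch of mouse chromosome 13 whose transcripts were lower, gene after gene, in 4T1 cells expressing METTL7A1 than in mock 4T1 cells. The stretch was defined as the genes with a midpoint from 50 Mb to below 90 Mb of chromosome 13 (build mm10) that reached 1 cpm (a count scaled to library size) in 3 or more libraries. It held 179 of the 13166 genes that passed this abundance filter in the series, and the filter removed 284 of the 463 listed genes of the same interval. The interval was chosen because of the fold changes measured in these libraries. All values of its members in the comparison of METTL7A1 with mock are therefore given as a description, with no test.

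4T1 is a mouse mammary carcinoma cell line. The METTL7A1 group comprised 3 libraries of 4T1 cells stably transfected with full-length Mettl7a1 cDNA under G418 selection, and the mock group comprised 3 libraries of 4T1 cells that, per the study, carried the empty vector. The sources used here do not say whether the transfected cells were a pool or a clone. The triplicates were described as biological, total RNA was depleted of ribosomal RNA, and strand-specific libraries were sequenced. Mettl7a1, the transfected gene on chromosome 15, had 6355, 11358 and 10398 counts in the METTL7A1 libraries and 30, 30 and 29 in the mock libraries, so the libraries matched their labels.

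The libraries held 18386780 to 28459338 counts. Log expression correlated at 0.989 to 0.996 between libraries of a group and at 0.961 to 0.967 between groups. The epithelial markers Epcam, Cdh1, Krt7, Krt8 and Krt18 were all expressed (summed level 1895 to 2240 cpm in METTL7A1 and 1710 to 2078 cpm in mock). Of 12 markers of fibroblasts, leukocytes and endothelium, 10 were below the abundance filter. The exceptions were Pdgfra (24.5 against 17.7 cpm) and Csf1r (2.41 against 0.764 cpm), both higher in METTL7A1, and their part in the values below was not tested.

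Dapk1 encodes death-associated protein kinase 1, a calcium/calmodulin-regulated serine/threonine kinase that promotes apoptosis and autophagy and is often silenced by promoter methylation in tumours. Gas1 encodes growth arrest-specific 1, a surface protein anchored by a lipid tail that accumulates in growth-arrested cells and acts as a co-receptor for Hedgehog ligands together with Patched. The gene of the main Hedgehog receptor, Ptch1, lies in the same stretch. Genes that are neighbours on a chromosome need not share a function, and the members range from cathepsins and respiratory chain subunits to a large group of zinc finger genes.

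The promoters of the genes on which the account turns are shown for context. Those of Dapk1 and Gas1 belong to genes at or near 0 in METTL7A1, and that of Nkd2 to a gene that fell far without reaching 0. The fourth belongs to Zcchc6, an abundant neighbour that kept most of its level. Each sequence runs 5′ to 3′ on the strand of its gene, from 250 bases before to 50 bases after the start given by RefSeq (GRCm38.p6), and capitals mark CG dinucleotides. They cover chr13:60601961-60602260 (plus strand, Dapk1), chr13:60177486-60177785 (minus strand, Gas1), chr13:73847582-73847881 (minus strand, Nkd2) and chr13:59823061-59823360 (minus strand, Zcchc6, which RefSeq lists as Tut7).
Dapk1: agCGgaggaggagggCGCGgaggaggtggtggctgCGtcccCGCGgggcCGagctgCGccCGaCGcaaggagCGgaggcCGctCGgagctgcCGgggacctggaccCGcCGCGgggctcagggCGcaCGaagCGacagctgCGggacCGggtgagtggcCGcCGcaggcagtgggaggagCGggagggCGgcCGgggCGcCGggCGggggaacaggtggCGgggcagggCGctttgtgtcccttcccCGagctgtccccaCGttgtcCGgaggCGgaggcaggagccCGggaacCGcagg
Gas1: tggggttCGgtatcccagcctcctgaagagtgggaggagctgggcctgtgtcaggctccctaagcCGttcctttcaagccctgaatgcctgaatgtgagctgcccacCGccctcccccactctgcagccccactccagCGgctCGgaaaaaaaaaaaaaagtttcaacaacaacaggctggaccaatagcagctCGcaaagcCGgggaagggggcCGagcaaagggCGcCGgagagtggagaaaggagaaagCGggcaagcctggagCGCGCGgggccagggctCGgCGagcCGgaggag
Nkd2: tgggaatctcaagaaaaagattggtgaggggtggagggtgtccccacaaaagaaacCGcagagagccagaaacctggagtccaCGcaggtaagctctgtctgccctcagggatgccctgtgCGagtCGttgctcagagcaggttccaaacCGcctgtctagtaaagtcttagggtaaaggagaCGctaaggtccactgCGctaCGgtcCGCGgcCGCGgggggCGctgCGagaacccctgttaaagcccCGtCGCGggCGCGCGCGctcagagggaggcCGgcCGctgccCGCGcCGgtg
Zcchc6: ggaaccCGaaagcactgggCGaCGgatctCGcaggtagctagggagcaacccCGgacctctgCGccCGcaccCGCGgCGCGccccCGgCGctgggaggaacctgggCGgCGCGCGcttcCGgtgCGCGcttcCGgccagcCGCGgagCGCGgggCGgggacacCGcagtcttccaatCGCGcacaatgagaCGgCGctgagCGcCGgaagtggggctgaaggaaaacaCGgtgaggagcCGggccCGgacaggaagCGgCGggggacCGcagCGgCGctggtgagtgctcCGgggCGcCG

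The Dapk1 window held 38 CG dinucleotides, the Zcchc6 window 44, the Nkd2 window 26 and the Gas1 window 17. Among neighbours that are not printed, the windows of Trip13, Sfxn1 and Slc12a7 held 34, 30 and 23. The window of Cplx2, another gene near 0, held 9, but RefSeq starts this gene outside its counted interval. RefSeq also starts Slc12a7 and Gas1 outside theirs, and the Gas1 window lies wholly beyond the counted end of Gas1 at 60177365. RefSeq promoters were found for 142 of the 179 members, with a median of 22 CG dinucleotides (quartiles 12 and 30) against 7 (quartiles 3 and 21) over all 27025 promoters, which include those of genes that are silent in 4T1. On either strand, GGGCGG (a GC box) was present in 54.2% of member promoters and 35.9% of all promoters, CCAAT in 38.7% and 37.9%, and TATAAA in 3.52% and 14.2%. Of the 4 promoters shown, those of Dapk1, Gas1 and Zcchc6 held GGGCGG, those of Gas1, Nkd2 and Zcchc6 held CCAAT, and none held TATAAA. These matches describe letters in the windows and not binding.

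The median member was expressed at 71.2% of its mock level (log2 fold change −0.49, quartiles −0.70 and −0.26). Of the 179 members, 167 (93.3%) had a fold change below 0, compared with 52.9% of all tested genes. At an adjusted p under 0.05 in edgeR's quasi-likelihood test over all genes, 125 members (69.8%) were called lower in METTL7A1, where 21% of all tested genes were, and 2 (1.12%) were called higher, where 21.1% of all genes were. The METTL7A1 libraries all lay below all mock libraries for 130 members (72.6%, against 25.6% of all genes) and all above for 3 (1.68%, against 25.9%). Because the interval was chosen on this contrast, these shares describe it and are no evidence for it.

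The typical change was modest and shared. There were 126 members between −1 and −0.25, 37 within 0.25 of 0, 12 below −1 and 4 above 0.25. The thresholds of the study were an adjusted p under 0.01 with a log fold change beyond 1.5 (taken here as log2). At these, 5 members passed as lower and 0 as higher, where 0.866% and 1.61% of all genes did. The 5 (Cplx2, Gas1, Dapk1, Nkd2 and Edil3) reached 1 cpm in the mock libraries only, so they had to be lower. Abundant and rare members were shifted alike in the median, with −0.49 for the 88 members whose average log2 cpm was above 4 and −0.48 for the other 91. Over the 179 members, which share the same 6 libraries, the fold change had a Spearman correlation of −0.061 with average log2 cpm, −0.109 with exon length and −0.093 with position.

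**Figure D1:**
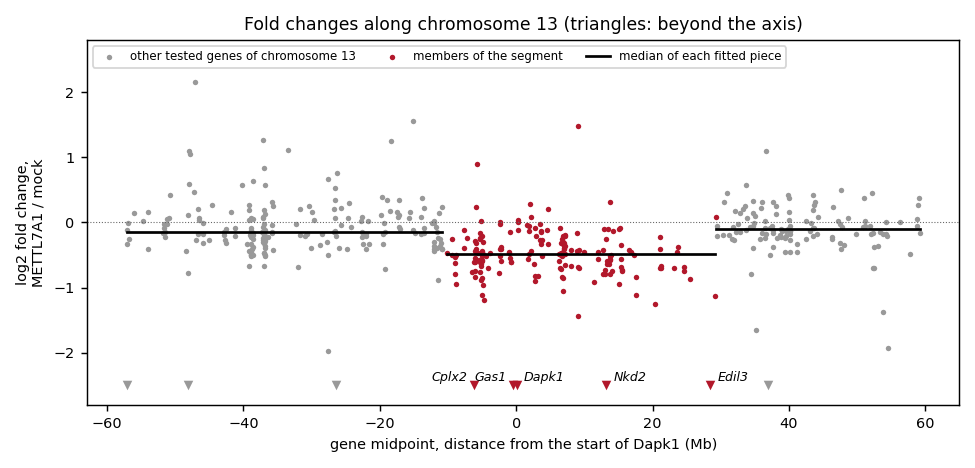
Log2 fold change (METTL7A1 over mock, vertical axis) of each tested gene of chromosome 13 against the distance of its midpoint from the start of Dapk1 in Mb (horizontal axis). Red points are the 179 members, grey points the other tested genes of the chromosome, black lines the medians of the 3 fitted pieces (−0.15, −0.49 and −0.10), and triangles genes beyond 2.5 in either direction. The red points lie mostly between −1 and 0 from end to end, with Cplx2, Gas1, Dapk1, Nkd2 and Edil3 far below them.

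The flanks of the chromosome were closer to mock, with a few genes that stood far from it. 2810429I04Rik, near the proximal end (chr13:3478243-3501393), had 0, 2 and 1 counts in METTL7A1 and 122, 137 and 202 in mock. The 201 tested genes before the segment had a median of −0.15 and the 121 after it a median of −0.11, and the 12665 genes of the other chromosomes had a median of −0.02. Called genes went both ways in the flanks. Before the segment 39 were lower (19.4%) and 21 higher (10.4%), and after it 25 were lower (20.7%) and 14 higher (11.6%). The lower shares were near the 21% of all tested genes, and the higher shares were below the 21.1% of all tested genes. A comparable shift was found elsewhere. The first 50 Mb of chromosome 10 had a median of −0.47 over 149 genes. Among 214 windows of 10 Mb with at least 20 tested genes, the lowest lay on chromosome 12 (20 to 30 Mb, −0.58). Further windows of chromosome 12 were also low, with −0.46 (0 to 10 Mb) and −0.51 (30 to 40 Mb). The chromosome 12 windows from 50 to 90 Mb had medians from −0.53 to −0.49, a shift as deep as that of the segment. The window from 70 to 80 Mb of chromosome 13 ranked 2 from the lowest (−0.57), that from 50 to 60 Mb ranked 6 (−0.51) and that from 60 to 70 Mb ranked 14 (−0.39). The window from 80 to 90 Mb had 15 genes, too few for this ranking (−0.70), and the next window of chromosome 13 ranked 28 (20 to 30 Mb, −0.19).

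The position of the edges was read from the data by fitting pieces of constant fold change along the chromosome, with at least 10 genes per piece and values limited to 2 in either direction. The fit gave 3 pieces, with the middle one running from Fbxw17 to Gm4117 over 178 genes. Its proximal edge fell at 50.1 Mb, between Iars and Fbxw17. Iars, the isoleucyl-tRNA synthetase, was at 148 ± 4.09 cpm in METTL7A1 and 125 ± 4.09 cpm in mock (mean ± SD, n = 3 per group) and had a log2 ratio of 0.24 (SE 0.07). Fbxw17, an F-box gene and the first member, was at 10.3 ± 1.14 cpm against 14.4 ± 1.25 cpm (−0.47, SE 0.12). Gm25394, just outside the same limit, had a fold change of −0.41 (SE 0.21) and was not called, and Spin1, the next member inside, had a smaller fold change than Fbxw17 (−0.26, SE 0.09).

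The distal edge fell at 89.9 Mb, between Gm4117 and Xrcc4. Gm4117 had 126, 187 and 146 counts in METTL7A1 and 178, 188 and 592 in mock, so its fold change (−1.13, SE 0.34) rested largely on mock replicate 3 and was −0.45 without that library. Xrcc4, the partner of DNA ligase IV in non-homologous end joining and the last member by position, was at 8.75 ± 0.47 cpm against 8.26 ± 0.58 cpm (0.08, SE 0.12), with overlapping groups. Beyond the limit of 90 Mb, Gm24507 (−0.05) and Tmem167 (−0.21, SE 0.07) were again near the flank. Xrcc4 thus belonged to the interval by its position but to the distal flank by its value.

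The abundance limit was as gradual. In the third highest library, Platr25 and Ube2ql1 reached 1.06 and 1.09 cpm and were kept, and Gm8399 and Gm22574 reached 0.999 and 0.98 cpm and were left out. Of the 179 members, 161 reached 1 cpm in every library. A further 8 reached it in every mock library and in no METTL7A1 library, and had to be lower by the way they entered: Cplx2, Dok3, Gas1, Dapk1, Mir24-1, Gm17108, Nkd2 and Edil3. Ube2ql1 reached it in the METTL7A1 libraries only.

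Each METTL7A1 library carried the shift on its own. Against the mean of the mock libraries, the median over members was −0.47, −0.47 and −0.50 in METTL7A1 replicates 1 to 3, with 163, 165 and 160 of 179 members below 0. Each mock library against the mean of the other two gave medians of 0.02, 0.01 and −0.01, with 77, 87 and 94 members below 0. When the edges were fitted to single METTL7A1 libraries, the distal edge stayed at 89.9 Mb in all 3, whereas the proximal edge moved to 49.1 Mb in replicate 1, 50.1 Mb in replicate 2 and 47.7 Mb in replicate 3. The proximal edge therefore differed by over 2 Mb between libraries, and the distal edge did not differ. The fits of replicates 1 and 2 had 5 pieces and that of replicate 3 had 3. In each fit the change point nearest 50 Mb or 90 Mb was taken as the edge. All 3 fits used the same mock mean, so their match at the distal edge is not independent.

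**Figure D2:**
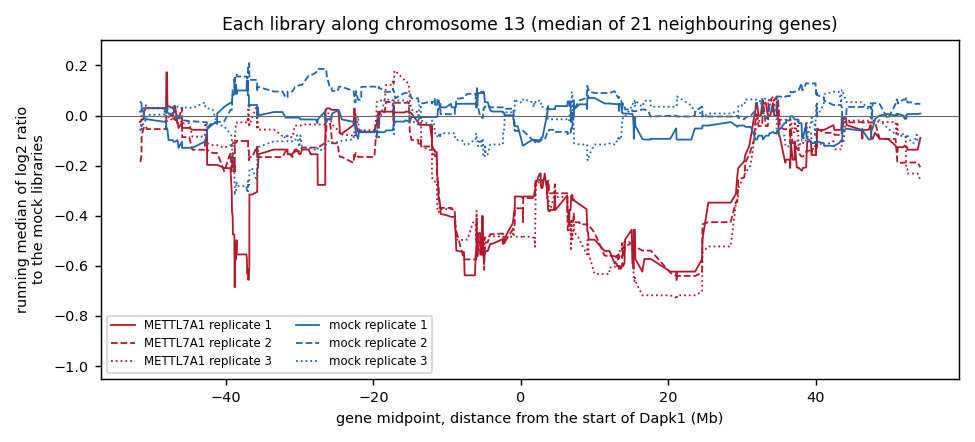
Running median over 21 neighbouring genes of the log2 ratio of each library to the mock libraries (vertical axis) against the distance from the start of Dapk1 in Mb (horizontal axis). METTL7A1 libraries (red) were compared with the mean of the 3 mock libraries and each mock library (blue) with the mean of the other two. The red lines descend over the proximal edge, run shallower just after Dapk1 and return at the distal edge, while the blue lines stay near 0. METTL7A1 replicate 1 alone also dips over a short proximal stretch.

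In sum over its members the segment supplied 0.546%, 0.588% and 0.583% of the counts of the METTL7A1 libraries and 0.701%, 0.781% and 0.805% of those of the mock libraries. After TMM scaling this was 5408, 5664 and 5770 cpm against 7825, 8097 and 7456 cpm, with no overlap. In a bulk library, fewer cells that carry a transcript and fewer transcripts per cell cannot be told apart.

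Within this shared and modest shift, 3 members held at most 3 counts in every METTL7A1 library (1.68% of members, against 0.106% of tested genes). All 3 passed the abundance filter through the mock libraries alone and so had to be lower. The interval was also chosen on this contrast, so these shares describe it and are no evidence for it. Dapk1 (chr13:60601947-60763185, plus strand) was counted 2, 3 and 0 times in METTL7A1, against 222, 285 and 308 times in mock. In cpm it was at 0.070 ± 0.061 against 12.1 ± 0.32, a mock level 176 times that of METTL7A1 (95% exact interval 75.1 to 544). The groups did not overlap, which was fixed in advance by the way Dapk1 passed the abundance filter. The mock libraries differed little among themselves.

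Gas1 (chr13:60174405-60177365, minus strand) had no count in any METTL7A1 library and 27, 55 and 31 counts in mock (1.66 ± 0.54 cpm). With a floor of 3 counts per library, which is 0.128 cpm on average, Gas1 was at least 12.97-fold lower in METTL7A1. Its mock level was low and varied more than that of Dapk1, with replicate 2 above the others. Intervals and floors cover counting error only.

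Cplx2 (chr13:54371349-54383917, plus strand), which encodes complexin 2, a regulator of SNARE-driven vesicle fusion, had 0, 1 and 0 counts in METTL7A1 and 48, 80 and 68 in mock. The mock level was 212 times that of METTL7A1 (95% exact interval 37.5 to 8402), and the width of the interval reflects the single METTL7A1 count. Cplx2 lies several Mb from Gas1 and Dapk1, so the genes near 0 were not all side by side.

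A pair of members fell far without reaching 0. Nkd2, a Dishevelled-binding antagonist of Wnt signalling, had 3, 10 and 10 counts against 78, 88 and 98 (0.302 ± 0.126 against 3.95 ± 0.32 cpm; log2 fold change −3.63, SE 0.28). Edil3, a secreted integrin-binding matrix protein, had 3, 10 and 7 counts against 44, 54 and 61 (0.261 ± 0.091 against 2.36 ± 0.12 cpm; −3.09, SE 0.29). The groups did not overlap for either gene, which was fixed in advance by the way both passed the abundance filter.

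The neighbours of these 5 genes did not share the depth of their fall. Zcchc6, the last tested gene before Gas1 and a terminal uridylyltransferase that tails RNAs, was at 58.3 ± 4.01 cpm against 88.6 ± 2.39 cpm (−0.60, SE 0.07). On the other side of Dapk1, 4930486L24Rik had 25, 48 and 55 counts against 27, 46 and 42 (0.04, SE 0.24), and the cytotoxic T lymphocyte-associated genes Ctla2b and Ctla2a had fold changes of −0.12 (SE 0.17) and 0.01 (SE 0.25). The groups overlapped for all 3 of these distal neighbours. Before Gas1 thus lay a gene near the level of the segment, and after Dapk1 genes with fold changes near 0. The SEs of these distal neighbours (0.17 to 0.25) are wide beside the segment median of −0.49. Their counts therefore do not clearly separate the mock level from that of the segment.

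The interval between Zcchc6 and 4930486L24Rik spans 1.02 Mb and holds 8 listed genes, of which only Gas1 and Dapk1 were tested. The other 6 had 0 counts in METTL7A1 and 1 in mock, summed over libraries, so the interval offers no further gene to compare. Of 13 genes listed around Dapk1, mostly cathepsin and Ctla2 relatives of the placental cluster, 11 had no count in any library.

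Cplx2 lay between Sfxn1, a mitochondrial serine carrier (−0.76, SE 0.08), and Thoc3, a subunit of the THO complex that couples transcription to mRNA export (−0.61, SE 0.09). These tested neighbours are 0.351 Mb apart, and the other 4 listed genes between them had 1 count in METTL7A1 and 4 in mock. Nkd2 lay between Slc12a7, a potassium-chloride cotransporter (−0.26, SE 0.07), and Trip13, an ATPase of the spindle checkpoint (−0.63, SE 0.08). Edil3 lay between Cox7c (−0.87, SE 0.09) and Gm4117. Cox7c lay near the 10th percentile of the members (−0.87) and Gm4117 below it, whereas the neighbours of Cplx2 and Nkd2 lay between the 10th and 90th percentiles (−0.87 and −0.09).

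**Figure D3:**
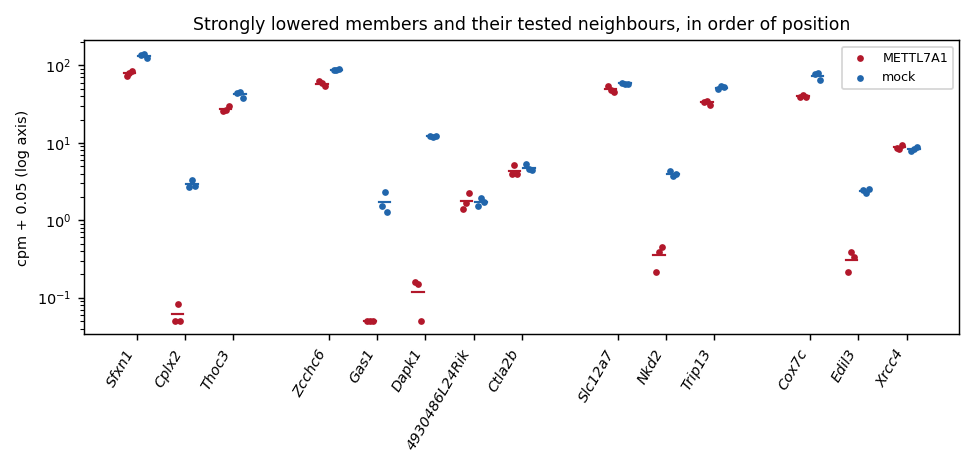
Level of 14 genes in every library, in cpm plus 0.05 on a log axis, in order of position and in 4 groups set around Cplx2, around Gas1 and Dapk1, around Nkd2 and around Edil3. Points are libraries (METTL7A1 red, mock blue) and lines their means. Cplx2, Gas1 and Dapk1 lie at the bottom of the axis in METTL7A1, Nkd2 and Edil3 well below mock, and the neighbours near or moderately below their mock level.

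Along the segment, in 8 windows of 5 Mb, the median fold change was −0.50 (50 to 55 Mb, 24 genes), −0.52 (55 to 60 Mb, 39 genes), −0.24 (60 to 65 Mb, 26 genes), −0.43 (65 to 70 Mb, 39 genes), −0.57 (70 to 75 Mb, 23 genes), −0.57 (75 to 80 Mb, 13 genes), −0.68 (80 to 85 Mb, 9 genes) and −0.81 (85 to 90 Mb, 6 genes). The windows were thus not alike. The window that opens with Gas1 and Dapk1 was the least lowered in its median, although it held 2 of the 3 members near 0. This window had 13 of its 26 members (50%) called lower, where 69.8% of all members and 21% of all tested genes were. Its quartiles were −0.55 and −0.06, so that genes such as Fancc (−0.83), Ercc6l2 (−0.82) and Mir24-1 (−0.90, SE 0.25) stood beside Slc35d2 (−0.03) and Zfp808 (−0.04). The last 2 windows had few tested genes.

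**Figure D4:**
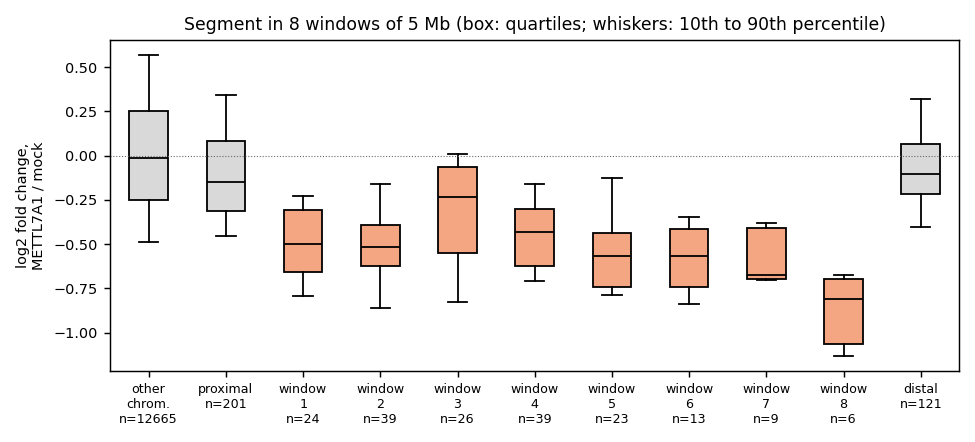
Distribution of log2 fold changes (METTL7A1 over mock, vertical axis) in the genes of other chromosomes, in the proximal and distal flanks of chromosome 13 and in 8 consecutive windows of 5 Mb of the segment (windows 1 to 8). Boxes show quartiles with the median, whiskers the 10th and 90th percentiles, and the number of genes stands under each box. The medians of the windows lie between −0.81 and −0.24, all below those of the flanks.

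By function, the signalling genes of the segment were listed first. The list held 21 genes, of which 11 were tested and all 11 were called lower (median −0.95), and 4 had no count in any library. Of all tested genes 21% were called lower, and of all members 69.8%, shares that also apply to the lists that follow. Gas1, Dapk1 and Nkd2 passed the abundance filter through the mock libraries alone and so had to be lower. The count of 11 and the median of −0.95 include them, so this median cannot be ranked against those of the other lists. Ptch1, the receptor that restrains Smoothened until a Hedgehog ligand binds, was at 35.2, 38.9 and 38.6 cpm in METTL7A1 and 43.4, 42.3 and 44.7 cpm in mock (−0.21, SE 0.07). Its groups did not overlap, but its change was among the smallest of the list. Smad5, a transducer of bone morphogenetic protein signals, was at 80.8 ± 2.68 against 112 ± 2.00 cpm (−0.47, SE 0.06), although its exons overlap another gene on the same strand. Rasa1, a GTPase-activating protein that switches off Ras, was at 97.2 ± 1.55 against 155 ± 2.89 cpm (−0.68, SE 0.06).

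Arrdc3, an alpha-arrestin that directs the trafficking of surface receptors, was at 7.29 ± 0.13 against 17.4 ± 0.84 cpm (−1.26, SE 0.10). Pitx1, a homeodomain factor of hindlimb development, was at 3.93 ± 0.82 against 9.12 ± 2.04 cpm (−1.20, SE 0.20). Gadd45g, a stress-induced regulator of MAP kinase signalling, had 32, 53 and 33 counts against 74, 69 and 65 (−0.95, SE 0.23). Arrdc3 and Pitx1 were thus changed more than the typical member, in each case with groups that did not overlap. Mef2c, a muscle and neural transcription factor, stayed under the abundance filter with 0, 2 and 4 counts against 23, 20 and 36.

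Of 13 genes of DNA repair, telomere upkeep and the cell cycle, 12 were called lower, where 69.8% of members and 21% of all genes were, and Xrcc4 was not (median −0.63, range −0.83 to 0.08). Tert, the catalytic subunit of telomerase, was at 8.95, 8.67 and 7.54 cpm in METTL7A1 and 14.2, 13.4 and 14.1 cpm in mock (−0.73, SE 0.11). The adjacent Clptm1l was at 63.7 ± 4.12 against 110 ± 9.75 cpm (−0.79, SE 0.08). Fancc, a subunit of the Fanconi anaemia core complex, was at 6.64 ± 0.41 against 11.8 ± 1.505 cpm (−0.83, SE 0.13), and Ercc6l2, a helicase-like repair factor, at 16.9 ± 1.40 against 29.8 ± 4.03 cpm (−0.82, SE 0.11). For these 4 genes every METTL7A1 library was below every mock library.

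Of 12 genes of mitochondrial proteins, 11 were called lower (median −0.58; members 69.8%, all genes 21%), and Auh, an enzyme of leucine breakdown, was not (−0.11, SE 0.15). Cox7c, a subunit of cytochrome c oxidase, was at 39.7, 42.0 and 39.1 cpm against 76.9, 79.1 and 64.5 cpm (−0.87, SE 0.09). Higd2a, an assembly factor of the respiratory chain, was at 10.5 ± 0.74 against 19.0 ± 1.89 cpm (−0.85, SE 0.11), and Sdha, the flavoprotein of succinate dehydrogenase, at 98.6 ± 2.59 against 147 ± 7.67 cpm (−0.57, SE 0.07). Cox7c and Higd2a lay near the 10th percentile of the members (−0.87) and Sdha closer to their median (−0.49).

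All 9 genes of RNA processing and translation were called lower (median −0.70), again beside 69.8% of members and 21% of all genes. Nsun2, which methylates cytosines of tRNAs, was at 173 ± 6.39 against 278 ± 15.1 cpm (−0.69, SE 0.07), and Ddx41, a DEAD-box helicase, at 27.99 ± 1.41 against 50.8 ± 4.50 cpm (−0.86, SE 0.08). Hnrnpa0, an RNA-binding protein of the hnRNP family, was at 62.5, 76.7 and 81.9 cpm against 129, 139 and 110 cpm (−0.77, SE 0.11). The METTL7A1 libraries of Hnrnpa0 were all below the mock libraries, with a wider spread in both groups than for Nsun2.

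Of 13 tested genes of secretion, trafficking and proteolysis, 9 were called lower and 4 were not (median −0.45), a share near the 69.8% of all members and above the 21% of all genes. Lman2, a cargo receptor of the early secretory pathway, was at 98.7 ± 12.2 against 168 ± 15.6 cpm (−0.77, SE 0.10), and Erap1, the aminopeptidase that trims peptides for class I molecules, at 35.6 ± 1.16 against 59.99 ± 2.54 cpm (−0.75, SE 0.07). The 4 not called were Golm1 (−0.14, SE 0.11), Rab24 (−0.23, SE 0.09), Cast (−0.13, SE 0.06) and Ctsl (−0.26, SE 0.11). Of 4 listed matrix genes in the segment, only Edil3 was tested.

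**Figure D5:**
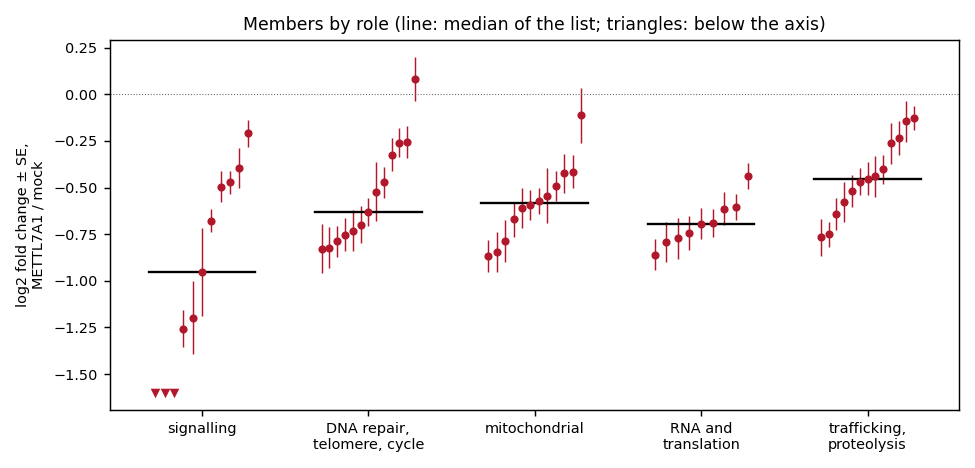
Log2 fold change (METTL7A1 over mock, vertical axis) of the tested members in 5 lists of genes by role, with bars of 1 SE. Horizontal lines are the list medians (−0.95, −0.63, −0.58, −0.70 and −0.45 from left to right). Triangles are Gas1, Dapk1 and Nkd2, which lie below the axis. The first median includes these genes, which had to be lower by the way they passed the abundance filter. The highest point of the second list is Xrcc4 (0.08), and the other points lie below 0.

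The gene with the most transcripts per length in mock was Ctsl, the lysosomal protease cathepsin L, at 494 cpm per kb of exon. It was at 717, 833 and 887 cpm in METTL7A1 and 983, 1070 and 871 cpm in mock, with overlapping groups. Next per length were Hnrnpk (133 cpm per kb, log2 fold change −0.38), an RNA-binding protein, the pseudogene Gm9625 (129 cpm per kb, −0.36), Prelid1 (126 cpm per kb, −0.61), which carries phosphatidic acid inside mitochondria, and the histone pseudogene Hist1h2al (105 cpm per kb, −0.50). Reads of Gm9625 and Hist1h2al could come from near-identical copies. Without Ctsl, the summed level of the segment was 4691, 4831 and 4883 cpm in METTL7A1 and 6842, 7027 and 6585 cpm in mock.

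The 28 members with a Zfp symbol, most of them from clusters of zinc finger repressors, had a median of −0.43. All 28 were below 0, and 16 (57.1%) were called lower. The other 128 protein-coding members had a median of −0.51, with 96 called lower (75%) and 2 higher (1.56%). Of all members 69.8% were called lower and 1.12% higher, and of all tested genes 21% and 21.1%. Several zinc finger genes are near-identical copies whose reads could be shared, and 12 members share exons with another gene on the same strand. The median of these 12 was −0.46 against −0.49 for the others. Of the 23 members that are not protein coding in GENCODE M21 or are not listed there, Gm17108, which overlaps Srd5a1, had the lowest value (−1.44, SE 0.28).

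Only 12 members had a fold change above 0, and 2 of them were called. Ube2ql1, a ubiquitin-conjugating enzyme-like gene, had 20, 42 and 30 counts against 6, 16 and 8 (1.24 ± 0.17 against 0.437 ± 0.194 cpm; 1.49, SE 0.33). Tspan17, a tetraspanin that guides the protease ADAM10, had 50, 95 and 86 counts against 33, 36 and 44 (3.13 ± 0.40 against 1.69 ± 0.17 cpm; 0.90, SE 0.20). For Tspan17 the METTL7A1 libraries were all above the mock libraries, as they were for 25.9% of all tested genes. For Ube2ql1 the same separation was fixed in advance by the way it passed the abundance filter. Gprin1, beside Tspan17, was also above 0 but was not called (0.24, SE 0.32). Ftl1-ps1 (0.32, SE 0.24) and 6720489N17Rik (0.29, SE 0.14) were the other members above 0.25 and were not called.

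The genes of the interval that failed the filter pointed the same way as a sum. Of these 284, 147 had no count in any library. Another 65 had 10 or more counts in all, and 48 of them were lower in METTL7A1 by summed counts. Together the 284 genes had 18.7 cpm in METTL7A1 and 29.3 in mock, or 63.7% of the mock level, which was computed from sums and not tested. No matching share is given for the genes that failed the filter elsewhere in the series. As the interval was chosen on this contrast, these values describe it and are no evidence for it.

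The relatives of Dapk1 and Gas1 outside the segment were not used to choose it and could be tested. The other members of the death-associated kinase family all rose in METTL7A1 by edgeR's quasi-likelihood test, with p adjusted over all 13166 genes. Dapk2, the closest relative of Dapk1, had 91, 137 and 150 counts against 31, 40 and 40 (log2 fold change 1.66, SE 0.19, edgeR adjusted p = 4.99e-05). Dapk3 rose by 0.59 (SE 0.10, edgeR adjusted p = 0.000567), and Stk17b, a related kinase, by 0.53 (SE 0.09, edgeR adjusted p = 0.000633). In cpm per library these 3 genes did not overlap between groups, in the direction opposite to Dapk1. Among all tested genes, 21.1% were called higher and 25.9% had every METTL7A1 library above every mock library. Dapk3 lies on chromosome 10, whose windows of 10 Mb beyond 50 Mb with at least 20 tested genes had medians from 0.33 to 0.50. The part of this regional level in the rise of Dapk3 was not tested.

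Of 16 other Hedgehog pathway genes, 11 were tested, of which 5 were called lower and 2 higher, where 21% and 21.1% of all tested genes were. Those called lower were Kif7, a kinesin that regulates Gli proteins at the cilium (−1.01, edgeR adjusted p = 0.000597), Dhh, a ligand (−0.76, edgeR adjusted p = 0.0024), Sufu, an inhibitor of Gli proteins (−0.35, edgeR adjusted p = 0.00395), the co-receptor gene Cdon (−0.30, edgeR adjusted p = 0.00956) and Gli3, on the proximal part of chromosome 13 (−0.27, edgeR adjusted p = 0.0302). Stk36 (1.02, edgeR adjusted p = 0.00461) and Boc, the third co-receptor beside Gas1 and Cdon (0.51, edgeR adjusted p = 0.0235), were called higher. The call of Boc was lost in 5 of its alternatives and that of Gli3 in 3, among them the omission of METTL7A1 replicate 2 (edgeR adjusted p = 0.121 for Boc and 0.152 for Gli3), and Gli3 was at −0.17 without mock replicate 3. Hhip, Smo, Disp1 and Hhat did not pass the test. The co-receptors thus did not move together, with Gas1 and Cdon lower and Boc higher. The target gene Gli1 had at most 12 counts in any library and Shh had none, so neither could be compared at this depth. Of the targets that could be, Ptch1 was at −0.21 and Hhip at −0.12 (SE 0.11, edgeR adjusted p = 0.413).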

How the data were processed

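Total RNA of 4T1 cells was sequenced in 6 libraries, 3 METTL7A1 and 3 mock, grouped by the sample titles. Per the study's methods and processing notes, the authors trimmed reads with BBDuk, aligned them to mm10 with STAR 2.5.3a, counted them per gene with featureCounts and deposited the raw counts for 48587 symbols. The strand and multimapping settings are not given in the sources used here. The deposited table also gives exon coordinates and the exon length in bases.

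Genes with at least 1 cpm in at least 3 libraries were kept. Counts were scaled by TMM and compared with edgeR 4.0.16 (R 4.3.3, glmQLFit and glmQLFTest, no covariate), and p was adjusted by the Benjamini-Hochberg method over 13166 genes. Each SE was taken as the log2 ratio divided by the root of edgeR's F. Edges were fitted to the fold changes of chromosome 13 by exact least squares, with the number of pieces set by the Bayesian information criterion. Libraries of 18386780 to 28459338 counts put a count of 3 at 0.128 cpm. Exact intervals are at 95%. Coordinates are those of the table (mm10, from 1), biotypes come from GENCODE M21 of the same build, and promoters come from RefSeq. Listed as Tut7 and Tent4a, Zcchc6 and Papd7 were matched through synonyms.

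Genes named are the near-0 members and their tested neighbours, the genes at the limits, the members whose log2 fold change was beyond 1.5 downwards or 0.25 upwards, the 5 most abundant per length, 2 to 5 members of each list by role and pathway, and 2810429I04Rik. The others were singled out after their values were seen (Mir24-1, Slc35d2, Zfp808, Mef2c, Gm17108, Dok3, Gprin1, Gadd45g, Golm1, Rab24, Cast, Auh). The members and lists were chosen with earlier results of these data known. Alternatives were RLE and upper quartile scaling, other filters, a replicate block, omission of each library, and DESeq2 1.42.0. The replicate numbers did not pair the libraries. The scripts were tested on simulated data.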

Additional observations from a re-analysis of the deposited data

How the results depend on the processing

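The lowered state of the segment held in every alternative run. Its median log2 fold change was −0.46 with no abundance filter and −0.47 as the log2 ratio of summed cpm, and it lay between −0.50 and −0.46 when a library was left out, the weakest without mock replicate 3. Members called lower numbered 101 (without METTL7A1 replicate 2) to 123, against 125. Members called higher fell from 2 to 1 with at least 10 counts in every library. The proximal edge moved to 48.9 Mb with at least 10 counts in every library, 51.1 Mb with no abundance filter and 51.2 Mb among genes with an average log2 cpm over 4, and lay from 48.5 to 50.1 Mb when a library was left out. The distal edge moved to 93.1 Mb with no abundance filter and to 88.1 Mb among the abundant genes, and leaving out a library did not move it. Genes past the study thresholds over the whole table numbered 326, but 710 with no filter and 205 with at least 10 counts in every library. With replicate number as a block, 113 members were called lower and 4810 genes in all, against 125 and 5537. The deviations of same-numbered libraries correlated at −0.15, 0.20 and −0.37, so the numbers were not treated as pairs.

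Among 61 named genes and 725 recomputed fold changes, 0 reversed with a call in the main or the alternative run. A change of sign in a gene called in neither run was not counted as a reversal. A call was lost 43 times and gained 4 times, all within 12 genes (Iars, Fbxw17, Spin1, Gm4117, Tmem167, Gm9625, Ctsl, Hist1h2al, Nsd1, Boc, Gli3 and Slc12a7). The cause was not tested. Depth limits the genes near 0, whose METTL7A1 levels rest on 0 to 3 counts per library. With 3 libraries a group, p measures the spread between these libraries only.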
